A study of Drosophila melanogaster with 72 samples.

Results

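The Y chromosomes ZH23 and ZW139, both of Zimbabwean origin, were compared in whole Drosophila melanogaster males. The comparison took 24 of the 72 libraries of the study, chosen by their labelled Y haplotype, with 12 libraries for ZH23 and 12 for ZW139. All males carried the 4361 nuclear background, and the series text describes them as isogenic apart from mitochondria and Y. They were sons of females from mitochondrial replacement lines and males from Y chromosome replacement lines. Each Y was combined with the same 6 mitochondrial haplogroups: the Beijing haplogroups B38 and B39, the Ithaca haplogroup I02, and the Dutch haplogroups N01, N02 and N23. Each combination had 2 libraries, from separate crosses, and each library came from a pool of 10 males aged 3 to 5 days that were kept on sucrose-yeast medium at 25 °C and received no treatment. The other 48 libraries carried the Beijing Y haplotypes B04 or B11, or the Dutch N03 or N07. Each Y haplotype is 1 replacement line, so a value for ZH23 or ZW139 describes that line. Replicate 2 of N01, N02 and N23 formed the labelled batch 2, which put 9 libraries of each Y in batch 1 and 3 in batch 2.

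The Drosophila Y chromosome is almost entirely heterochromatin and holds few protein-coding genes, most of them needed in the testis for sperm flagella and sperm maturation. Natural Y chromosomes differ mainly in satellite and other repeats. Males that differ in the Y alone have been found to differ in the RNA levels of X-linked and autosomal genes, which is known as Y-linked regulatory variation, and immune, metabolic and testis genes have been among those reported. Gene levels here came from sequencing near the 3' ends of polyadenylated RNA of whole flies. In such bulk samples, fewer cells of a type and less RNA per cell cannot be told apart.

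The libraries held 2943171 to 6004891 gene counts for ZH23 (median 4358944) and 3592462 to 7286345 for ZW139 (median 5034266), a difference in means with a 2-sided permutation p of 0.168. Between 10.3% and 19.9% of alignments were to several places in ZH23 libraries, against 9.68% to 12.9% in ZW139 libraries (permutation p = 0.0897, adjusted p = 0.28 over 5 technical measures). The male-specific RNA lncRNA:roX1 was at 331 to 1195 CPM (counts scaled to a common library total) in ZH23 libraries and at 345 to 953 CPM in ZW139 libraries. Of the female markers, the chorion gene Cp36 had no count in 21 of the 24 libraries and Cp38 in 1, while the yolk protein genes Yp1, Yp2 and Yp3 had counts in all 24. Cp38 reached 9.13 CPM and Yp1 8.68 CPM in ZH23 libraries, against 2.93 and 7.58 CPM in ZW139 libraries. A pair of libraries stood apart from their own Y: over the genes that separated the Y haplotypes (below), N01 ZH23 replicate 2 lay nearer the ZW139 median in 84.6% of genes and N23 ZH23 replicate 2 in 75.5%. Both belong to batch 2. The next were B39 ZW139 replicate 1 at 47.6%, N23 ZW139 replicate 1 at 40.6% and N23 ZW139 replicate 2 at 34.3%, and no other library exceeded 24.5%. Whether this pair carries the labelled Y, and whether the nuclear background was the same in all 24 libraries, was not tested, and this limits every difference between ZH23 and ZW139 given below. Counts are given with and without the pair for the lists that gained or lost a call. The pair was picked by its values at the called genes, after these were seen. Leaving it out therefore tends to raise differences and calls at such genes by construction, so values without the pair are a description.

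Of 10956 genes tested in a model with haplogroup and batch, 143 differed between ZH23 and ZW139 at an adjusted p under 0.05 (edgeR quasi-likelihood test, Benjamini-Hochberg), which is 1.31% of those tested. Of these, 113 were higher in ZH23 (1.03% of the genes tested) and 30 were lower (0.274%). The genes higher in ZH23 included members of the lists of cytochrome P450s, digestive enzymes, lipid synthesis and storage, antimicrobial peptides, eye genes and seminal proteins. The genes lower in ZH23 included 12 noncoding RNAs and 2 cuticle protein genes. At an unadjusted p under 0.05 there were 1772 of the 10956 genes, and counts by list at an unadjusted p belong beside this share. Without the pair of libraries named above, 340 genes were called, 242 higher and 98 lower in ZH23, and 137 of them were among the 143. Counts by list without the pair belong beside these 340 calls and not beside the 1.31%. DESeq2 also called more genes in all than edgeR, as given in the section on processing, so the 1.31% is not the share for its list counts either. The count of 143 was sensitive to single libraries. It was 12 without B39 ZH23 replicate 2, 16 without N02 ZW139 replicate 1 and 17 without N01 ZH23 replicate 1. It was 21 without B39 ZW139 replicate 2, 21 without N01 ZW139 replicate 1, 21 without N02 ZW139 replicate 2, 31 without N02 ZH23 replicate 1, 34 without N02 ZH23 replicate 2 and 36 without B38 ZH23 replicate 2. It was 43 without I02 ZW139 replicate 2, 53 without B38 ZW139 replicate 1, 57 without I02 ZH23 replicate 2, 59 without B38 ZH23 replicate 1, 63 without I02 ZW139 replicate 1, 85 without N23 ZW139 replicate 1 and 93 without B39 ZH23 replicate 1. Leaving out N01 ZH23 replicate 2 or N23 ZH23 replicate 2 gave 226 and 243. All 143 genes kept their direction in each of the 24 fits without 1 library. They were called in these same libraries, so this is in large part built in. Of the 143, 11 were called in each of the 24 fits, among them lncRNA:CR43987, CG9759, CG3699, Srg2, lncRNA:CR45809, lncRNA:CR44689, Est-Q, DNaseII, CG7900 and lncRNA:CR43372. A gene described below as higher or lower is one of the 143, and outside these 11 its call ended in at least 1 of those fits. Most of the 11 also lost the call in some other settings, such as leaving out a haplogroup. Of 18 such settings, DNaseII was called in 12, CG7900 in 13, Est-Q in 14 and lncRNA:CR43987 in 18.

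**Figure D1:**
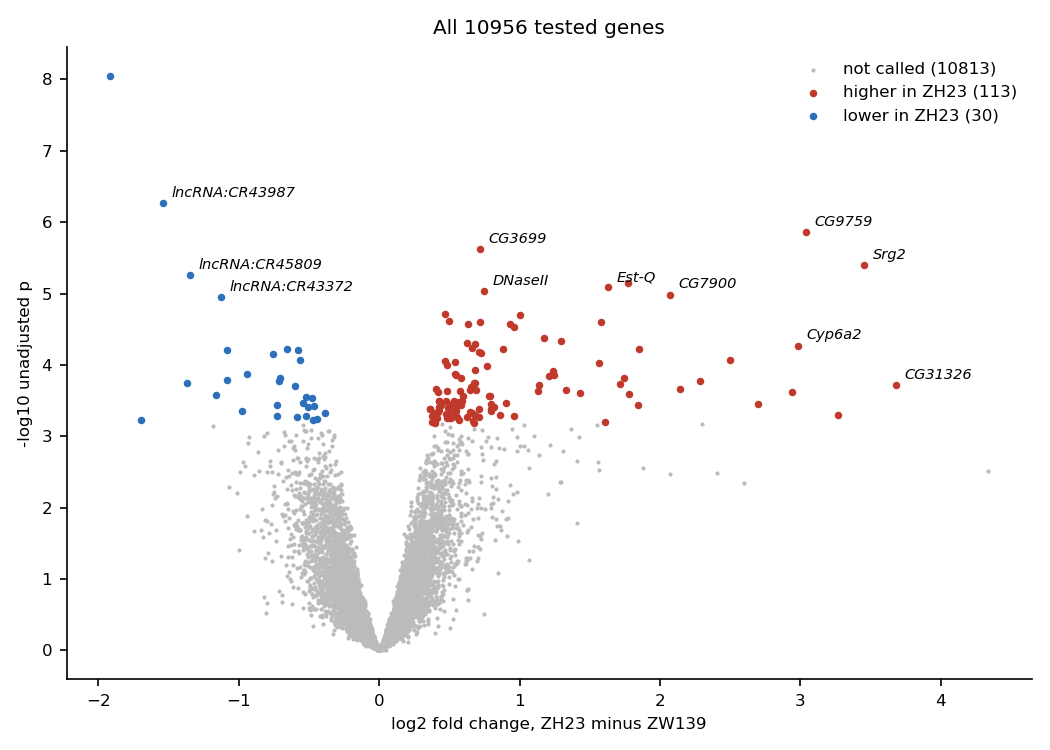
Each point is 1 of the 10956 genes tested. The horizontal axis is the log2 fold change, ZH23 minus ZW139, and the vertical axis is minus log10 of the unadjusted p. The 113 genes called higher in ZH23 (red) spread to larger changes than the 30 called lower (blue).

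A group of long noncoding RNAs was lower in ZH23. The RNA lncRNA:CR43372 (3R, 21530987 to 21532986) was the only one of the 10956 genes (0.00913%) whose 12 ZH23 and 12 ZW139 libraries did not overlap. It was at 1.49 to 6.76 CPM (median 4.73) in ZH23 libraries and at 7.20 to 12.4 CPM (median 9.09) in ZW139 libraries, and its log2 fold change was -1.13 ± 0.20 (adjusted p = 0.0111, edgeR). The RNA lncRNA:CR43987 (3L, 18693352 to 18693952) was at 1.18 to 4.51 CPM (median 2.07) in ZH23 libraries and at 3.50 to 10.3 CPM (median 6.62) in ZW139 libraries. Only N01 ZH23 replicate 2 and N23 ZH23 replicate 2 reached the ZW139 range. Its log2 fold change was -1.54 ± 0.22 (adjusted p = 0.00295, edgeR). For lncRNA:CR45809, which lies within Glut1 on the same strand, the range was 1.85 to 6.76 CPM (median 3.18) in ZH23 libraries against 3.87 to 14.9 CPM (median 8.55) in ZW139 libraries, a log2 fold change of -1.35 ± 0.23 (adjusted p = 0.0101, edgeR). Glut1 itself had a log2 fold change of -0.23 (adjusted p = 0.397). The strand setting of the counting is not given in the sources used here, so reads of genes that overlap on opposite strands cannot be told apart here or below. Among 671 noncoding genes tested, 4 were higher and 12 lower in ZH23. Among 10285 coding genes, 109 were higher and 18 lower.

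Against the 4 other Y haplotypes, it was ZW139 that was called for some of these RNAs and ZH23 for another. The RNAs lncRNA:CR43987 and lncRNA:CR43372 differed from the mean of the others in ZW139, by 1.09 (adjusted p = 4.68e-06) and 0.78 (adjusted p = 0.00594) on the log2 scale, and the ZH23 differences were -0.49 (adjusted p = 0.282) and -0.35 (adjusted p = 0.478). For lncRNA:CR45809 it was ZH23 that differed from the mean of the others, by -0.89 (adjusted p = 0.00675), against 0.46 in ZW139 (adjusted p = 0.116; edgeR, 72 libraries for all). The coding gene CG13551 showed the ZW139 pattern in the other direction. It was at 96.0 to 140.6 CPM (median 119) in ZH23 libraries and at 65.4 to 108.7 CPM (median 89.8) in ZW139 libraries, and it was lower than the other 4 Y haplotypes in ZW139 (log2 difference -0.45, adjusted p = 4.68e-06) with a ZH23 difference of -0.01 (adjusted p = 0.984; edgeR). CG13551 and the genes marked in the next paragraph were named after their values were seen. Its call held in 23 of the 24 fits without 1 library.

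Other single genes were lower in ZH23. Dhc36C, an axonemal dynein heavy chain, had a median of 15.8 CPM in ZH23 libraries and 23.4 CPM in ZW139 libraries (log2 fold change -0.58 ± 0.12, adjusted p = 0.0224, edgeR). The radial spoke protein gene Rsph9 had medians of 51.8 and 71.3 CPM in ZH23 and ZW139 libraries (log2 fold change -0.52 ± 0.12), and the ciliary transcription factor gene Rfx 10.1 and 13.4 CPM (log2 fold change -0.47 ± 0.12). The adjusted p of Rfx was 0.0607 without the ZH23 pair (edgeR). Dop1R1, a dopamine receptor, had medians of 4.57 CPM in ZH23 libraries and 7.77 CPM in ZW139 libraries. Dhc36C, Rsph9, Rfx and Dop1R1 were chosen after their values were seen. CCAP, which encodes the crustacean cardioactive peptide, was at 10.5 to 23.6 CPM (median 16.1) in ZH23 libraries and at 15.6 to 44.2 CPM (median 23.4) in ZW139 libraries (log2 fold change -0.73 ± 0.18, adjusted p = 0.0454, edgeR). Of 28 cuticle protein genes tested, 2 were lower, Cpr62Bc (log2 fold change -1.37 ± 0.31) and Cpr76Bd (-0.94 ± 0.20), which is 7.14% against 1.31% of all genes called. edgeR called none of them higher. DESeq2 called 1 higher and 2 lower, and without the ZH23 pair edgeR called 1 higher and 3 lower. Levels were low, with medians in ZH23 and ZW139 libraries of 1.51 and 4.61 CPM for Cpr62Bc and 1.80 and 3.23 CPM for Cpr76Bd. Their calls held in 11 and 14 of the 24 fits without 1 library. In batch 1 alone neither was called (adjusted p = 0.0585 and 0.11, edgeR). Of 21 neuronal genes listed, edgeR and DESeq2 called none (3 at an unadjusted p under 0.05 in edgeR), with a median log2 fold change of -0.05, and 1 was higher without the ZH23 pair.

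**Figure D2:**
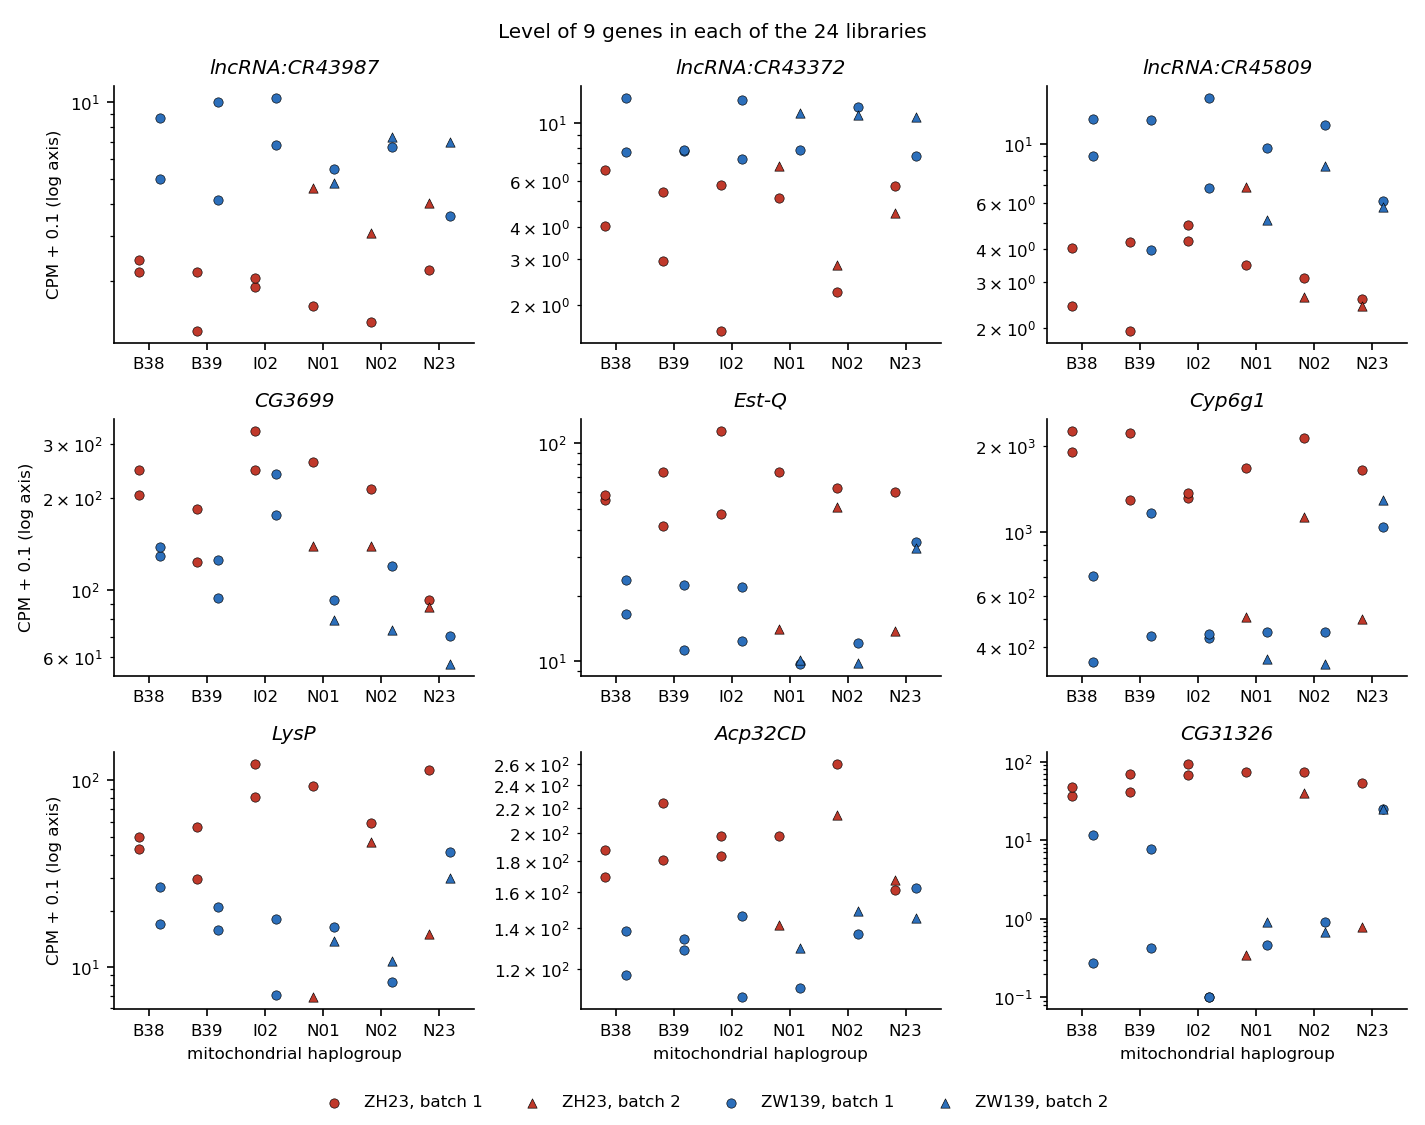
CPM of 9 genes in each of the 24 libraries, on log axes after adding 0.1, by mitochondrial haplogroup with ZH23 (red) left of ZW139 (blue). Circles are batch 1 and triangles batch 2. For lncRNA:CR43372 no ZH23 library reaches the ZW139 range of 7.20 to 12.4 CPM, while for CG31326 the ZH23 libraries N01 replicate 2 and N23 replicate 2 are low and both N23 ZW139 libraries are near 25 CPM.

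Among the genes higher in ZH23, several behaved as on or off by library. CG31326 (3R, 14218136 to 14220205) had the highest log2 fold change of the called genes, 3.68 ± 0.82 (adjusted p = 0.0356, edgeR). Its call held in 12 of the 24 fits without 1 library, with a highest adjusted p of 0.09 without N02 ZW139 replicate 1. Without the pair of ZH23 libraries that stood apart, its log2 fold change was 4.34 (adjusted p = 0.000901, edgeR). That rise is built in, because the pair holds its 2 low ZH23 values. In ZH23 it was at 36.5 to 92.7 CPM in 10 libraries, at 0.25 CPM in N01 replicate 2 and at 0.70 CPM in N23 replicate 2. In ZW139 it was at 0 to 0.82 CPM in 8 libraries, at 7.57 CPM in B39 replicate 1, at 11.7 CPM in B38 replicate 1, and at 25.1 and 24.6 CPM in the N23 libraries. The groups overlapped only through the 2 low ZH23 libraries. Dup99B, which encodes a sex-peptide relative of the ejaculatory duct and was named after its values were seen, split the same libraries. In ZH23 it was at 3669 to 7809 CPM in 10 libraries, and at 46.9 and 68.4 CPM in N01 replicate 2 and N23 replicate 2. In ZW139 it was at 1.98 to 77.2 CPM in 8 libraries, and at 1284 CPM in B38 replicate 1, 2222 CPM in B39 replicate 1, 3241 CPM in N23 replicate 1 and 5586 CPM in N23 replicate 2. Its log2 fold change of 4.34 ± 1.30 did not pass the test (adjusted p = 0.104, edgeR). It passed in DESeq2 (4.36, adjusted p = 0.000331). In edgeR it passed without the ZH23 pair (5.02, adjusted p = 0.0162), which holds its low ZH23 values.

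Srg2 was low in the same pair of ZH23 libraries. It was at 15.3 to 185 CPM in 10 ZH23 libraries, with 1.25 CPM in N01 replicate 2 and 0.70 CPM in N23 replicate 2, against 0.165 to 6.87 CPM in ZW139 libraries (log2 fold change 3.45 ± 0.57, adjusted p = 0.00874, edgeR). Without that pair, and so without its lowest ZH23 values, its log2 fold change was 3.86 (adjusted p = 0.000124, edgeR). CG9759 was at 0.464 to 36.6 CPM (median 7.36) in ZH23 libraries and at 0.487 to 2.47 CPM (median 0.795) in ZW139 libraries (log2 fold change 3.04, adjusted p = 0.00506, edgeR). CG7900 was at 3.01 to 34.0 CPM (median 20.7) in ZH23 libraries and at 1.55 to 12.8 CPM (median 3.38) in ZW139 libraries (log2 fold change 2.07 ± 0.37, adjusted p = 0.0111, edgeR). Est-Q, of the carboxylesterase family, was at 13.7 to 114 CPM (median 56.4) in ZH23 libraries and at 9.60 to 35.2 CPM (median 14.4) in ZW139 libraries, a log2 fold change of 1.63 ± 0.28 (adjusted p = 0.0111, edgeR). CG14120 and lectin-37Da, a C-type lectin, had log2 fold changes of 2.70 ± 0.64 and 2.94 ± 0.67, and for each of them the groups overlapped. Smaller but more even differences were seen in CG3699, at 87.4 to 332 CPM (median 194) in ZH23 libraries and 56.8 to 239 CPM (median 106) in ZW139 libraries, and in DNaseII, an acid nuclease, at 34.6 to 74.9 CPM (median 64.8) and 22.6 to 45.9 CPM (median 36.9) in ZH23 and ZW139 libraries. Their log2 fold changes were 0.72 ± 0.11 (adjusted p = 0.0065) and 0.75 ± 0.13 (adjusted p = 0.0111; edgeR). CG3699 was higher in ZH23 in every one of the 6 haplogroups, by 0.47 to 1.15 on the log2 scale.

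Of 71 cytochrome P450 genes tested, 6 were higher in ZH23 and none lower, which is 8.45% against 1.31% of all genes. The median log2 fold change of the 71 was 0.24, against 0.003 over all genes tested. Cyp6g1, known for its part in insecticide resistance, was at 498 to 2252 CPM (median 1511) in ZH23 libraries and at 347 to 1298 CPM (median 446) in ZW139 libraries (log2 fold change 1.30 ± 0.26, adjusted p = 0.0224, edgeR). N01 ZH23 replicate 2 and N23 ZH23 replicate 2 were at 506 and 498 CPM, and the ZW139 libraries B39 replicate 1 and both of N23 were at 1046 to 1298 CPM. Cyp6a2, an inducible enzyme that metabolises insecticides, was at 1.25 to 145 CPM (median 35.3) in ZH23 libraries and at 0.546 to 73.5 CPM (median 1.84) in ZW139 libraries (log2 fold change 2.98 ± 0.60, adjusted p = 0.0224). The others were Cyp6a8 (1.84 ± 0.44), Cyp12d1-p (0.68 ± 0.15), Cyp6a18 (0.53 ± 0.12) and Cyp4e2 (0.42 ± 0.10). Cyp12d1-p has a near-identical tandem copy, so the split of reads between the copies is uncertain. Of 51 glutathione S-transferase and UDP-glycosyltransferase genes tested, Ugt49B1 (log2 fold change 0.66 ± 0.13, adjusted p = 0.0224) and GstO2 (0.39 ± 0.10, adjusted p = 0.0446; edgeR) were higher, and the median of the list was 0.09. Cyp6g1 and Cyp6a2 were called in 18 and 20 of the 24 fits without 1 library, with highest adjusted p of 0.0611 and 0.0774, both without B39 ZH23 replicate 2. Without the ZH23 pair of libraries that stood apart, 11 P450 genes and 3 of the transferase list were higher and none lower.

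Of 51 digestive enzyme genes tested, 4 were higher in ZH23 and none lower (7.84%, median log2 fold change 0.14). LysP, a lysozyme of the salivary glands, was at 6.76 to 122 CPM (median 53.0) in ZH23 libraries and at 6.94 to 41.3 CPM (median 16.5) in ZW139 libraries, a log2 fold change of 1.57 ± 0.33 (adjusted p = 0.0275, edgeR). LysD, a midgut lysozyme, was at 0 to 85.6 CPM (median 11.6) in ZH23 libraries and at 0 to 10.7 CPM (median 0.568) in ZW139 libraries, and its near-identical paralogs make the assignment of its reads uncertain. Both lie in a stretch of chromosome 3L, 1203316 to 1235420, in which 4 of the 6 genes tested were higher in ZH23: CG9119 (log2 fold change 0.93 ± 0.18), LysD (3.27 ± 0.80), LysP and CG33966 (0.68 ± 0.17). The gene mwh, which overlaps the first 3 of them on the opposite strand, had a log2 fold change of 0.76 (adjusted p = 0.067). The maltase gene Mal-B1 was at 27.3 to 248 CPM (median 139) in ZH23 libraries and at 28.8 to 97.0 CPM (median 52.7) in ZW139 libraries (1.21 ± 0.26, adjusted p = 0.033, edgeR), and the protease gene Ser7 had a log2 fold change of 0.43 ± 0.10, with an adjusted p of 0.0514 without the ZH23 pair (edgeR). The lipase gene CG6295, outside the list, was at 15.5 to 494 CPM (median 185) in ZH23 libraries and at 4.38 to 186 CPM (median 39.1) in ZW139 libraries (2.28 ± 0.51, adjusted p = 0.0352, edgeR). The 4 midgut markers had log2 fold changes of -0.54 for Jon25Bi (adjusted p = 0.387), -0.04 for betaTry (0.919), -0.02 for alphaTry (0.975) and 0.08 for Jon65Aiii (0.879). LysP and CG6295 lost their call in 10 and 12 of the 24 fits, with highest adjusted p of 0.0858 without N01 ZH23 replicate 1 and 0.0879 without N02 ZW139 replicate 1. Without the ZH23 pair, 6 digestive genes were higher and 2 lower.

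Of 21 genes of lipid synthesis and storage, 3 were higher and none lower (14.3%, median log2 fold change 0.25). ACC, acetyl-CoA carboxylase, which starts fatty acid synthesis, was at 154 to 310 CPM (median 245) in ZH23 libraries and at 118 to 252 CPM (median 181) in ZW139 libraries, a log2 fold change of 0.44 ± 0.10 (adjusted p = 0.042, edgeR). Lsd-1, a perilipin of lipid droplets, had medians of 126 CPM in ZH23 libraries and 87.4 CPM in ZW139 libraries (0.50 ± 0.12), and the lipase gene Lip3 had medians of 13.1 CPM in ZH23 libraries and 6.66 CPM in ZW139 libraries (1.14 ± 0.25). Outside the list, ATPCL, the ATP citrate lyase that supplies cytosolic acetyl-CoA, was at 196 to 493 CPM (median 365) in ZH23 libraries and at 149 to 309 CPM (median 210) in ZW139 libraries (0.68 ± 0.14, adjusted p = 0.0224, edgeR). Taldo, the transaldolase of the pentose phosphate pathway, had medians of 874 CPM in ZH23 libraries and 512 CPM in ZW139 libraries (0.63 ± 0.12, adjusted p = 0.0162, edgeR). The galactose pathway genes Galk (0.66 ± 0.16) and Galt (0.43 ± 0.10), the gluconeogenic gene fbp (0.47 ± 0.10) and the aldehyde dehydrogenase gene Aldh (0.58 ± 0.13) were further single genes higher in ZH23. ATPCL, Taldo, Galk, Galt, fbp and Aldh were named after their values were seen. None of 15 glycolytic enzyme genes was called by edgeR or DESeq2 (2 at an unadjusted p under 0.05 in edgeR), and their median was 0.03. The fat body marker apolpp had a log2 fold change of 0.52 (adjusted p = 0.12). Lsp2, another, was at 54.7 to 481 CPM (median 220) in ZH23 libraries and at 17.2 to 534 CPM (median 75.6) in ZW139 libraries (0.85, adjusted p = 0.385, edgeR). Fbp1 was at 0 in 14 of the 24 libraries. The part of these marker levels in the lipid genes' differences was not tested. Without the ZH23 pair of libraries, 4 genes of the lipid list were higher and none lower. ACC, Lsd-1 and Lip3 were called in 6, 4 and 10 of the 24 fits without 1 library, with highest adjusted p of 0.105 (without N01 ZH23 replicate 1), 0.116 (without N02 ZW139 replicate 1) and 0.0918 (without N01 ZH23 replicate 1).

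Of 31 antimicrobial peptide and Bomanin genes tested, 2 were higher in ZH23 and none lower (6.45%, median log2 fold change 0.17). BomS6, a short secreted peptide of the Toll response, was at 605 to 3388 CPM (median 1717) in ZH23 libraries and at 505 to 1965 CPM (median 642) in ZW139 libraries (1.17 ± 0.23, adjusted p = 0.0224, edgeR). Mtkl, a Metchnikowin-like peptide gene, was at 0 to 81.3 CPM (median 6.39) in ZH23 libraries and at 0.185 to 5.05 CPM (median 1.74) in ZW139 libraries (2.50 ± 0.52, adjusted p = 0.0266). BomS6 and Mtkl were called in 18 and 17 of the 24 fits without 1 library, with highest adjusted p of 0.0611 and 0.0816, both without B39 ZH23 replicate 2. edgeR called none of 30 peptidoglycan recognition and immune signalling genes (median 0.08, 7 at an unadjusted p under 0.05), while DESeq2 called 1 higher, and edgeR without the ZH23 pair also 1 higher. Of 9 Turandot and JAK/STAT genes edgeR called none (median 0.08, 4 at an unadjusted p under 0.05) and DESeq2 called 3 higher. The peptide list had 2 higher and no lower gene when the ZH23 pair was left out. The blood cell markers Hml, eater and NimC1 had adjusted p of 0.699, 0.806 and 0.979.

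Of 68 accessory gland and ejaculatory duct genes tested, 3 were higher in ZH23 and none lower (4.41%), with a median log2 fold change of 0.20. Of the 68, 54 were above 0 (79.4%), against 50.6% of all genes tested. Acp32CD was at 141 to 259 CPM (median 185) in ZH23 libraries and at 107 to 162 CPM (median 136) in ZW139 libraries (0.50 ± 0.09, adjusted p = 0.0162, edgeR). Sfp78E was at 27.6 to 42.4 CPM (median 33.6) in ZH23 libraries and at 13.6 to 36.6 CPM (median 23.1) in ZW139 libraries (0.50 ± 0.12), and lectin-46Cb, a seminal lectin, had medians of 51.5 and 35.6 CPM in ZH23 and ZW139 libraries (0.55 ± 0.12, adjusted p = 0.033). The sex peptide gene SP and the duct marker EbpIII had log2 fold changes of 0.14 (adjusted p = 0.647) and -0.05 (adjusted p = 0.872). The other gland markers had 0.31 for Acp36DE (adjusted p = 0.246), 0.44 for Acp26Aa (0.348) and 0.04 for Acp62F (0.956). Dup99B, the other duct marker, had 4.34 (0.104, edgeR for all) and is described above. Acp32CD was called in 21 of the 24 fits, with an adjusted p of 0.0589 without N01 ZH23 replicate 1. Without the ZH23 pair, 5 genes of the list were higher and none lower, while DESeq2 on all 24 libraries called 4 higher and 2 lower.

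Of 37 phototransduction and eye genes, 2 were higher in ZH23 and none lower (5.41%), and the list had the highest median of those with 5 or more tested genes, 0.37. The summed level of the list was 2712 to 6295 CPM (median 4912) in ZH23 libraries and 2741 to 5400 CPM (median 3315) in ZW139 libraries. chp, which encodes the photoreceptor surface protein chaoptin, was at 1.25 to 27.0 CPM (median 13.8) in ZH23 libraries and at 0.525 to 12.3 CPM (median 1.15) in ZW139 libraries (2.14 ± 0.49, adjusted p = 0.0371, edgeR). Rh4, an ultraviolet opsin of R7 photoreceptors, was at 19.5 to 73.5 CPM (median 52.0) in ZH23 libraries and at 13.3 to 57.4 CPM (median 27.9) in ZW139 libraries (0.82 ± 0.20, adjusted p = 0.042). The main opsin gene ninaE and the arrestin gene Arr2 had log2 fold changes of 0.70 (adjusted p = 0.18) and 0.63 (adjusted p = 0.118). Of the eye genes, 13 were higher and none lower without the ZH23 pair, in a fit that called more genes in all. chp lost its call in 14 of the 24 fits, with the highest adjusted p, 0.0934, without N02 ZW139 replicate 1. Among 49 odorant-binding and chemosensory genes, CheA84a alone was called (0.58 ± 0.14), which is 2.04% and near the 1.31% of all genes. DESeq2, and edgeR without the ZH23 pair, called 4 of that list higher, and each of these called more genes in all than the main test. Among 18 chitinase and peritrophic genes, Cht9 alone was called (0.69 ± 0.16, 5.56% of the list).

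**Figure D3:**
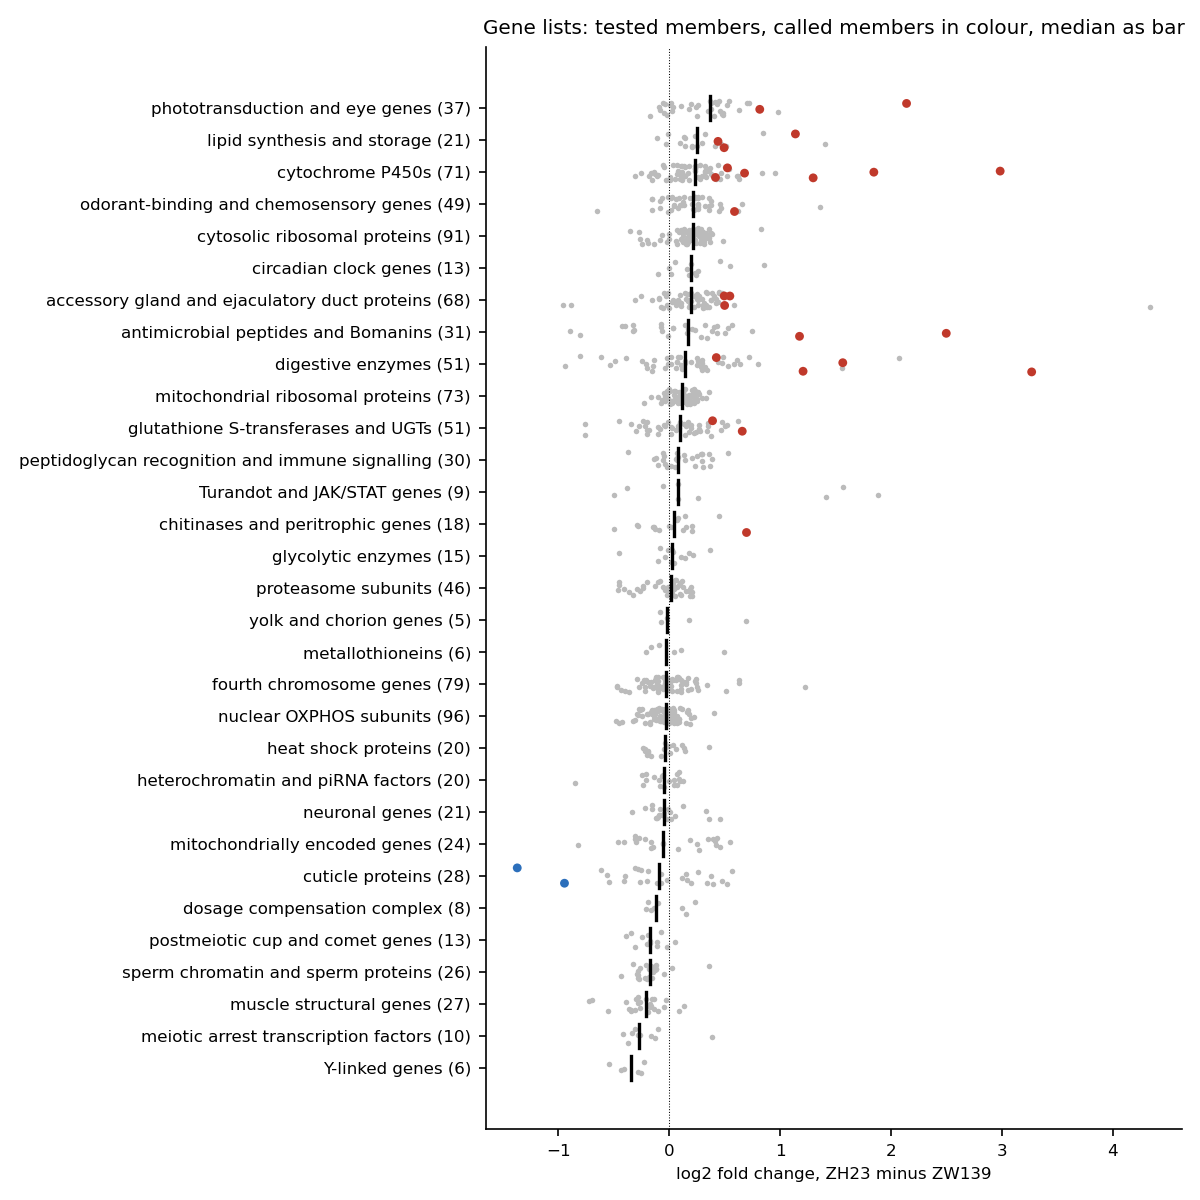
Log2 fold change, ZH23 minus ZW139, of every tested member of each gene list with 5 or more tested genes (number tested in brackets), in order of the list median (black bar). Coloured points are called genes, red higher and blue lower in ZH23. Called points are blue in the cuticle list and red in every other list that has any. Members not called are grey, and the 6 Y-linked genes tested all lie below 0.

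No gene on the Y itself was called. Of 12 single-copy Y-linked genes, 6 had enough counts to test, and their log2 fold changes were all below 0, between -0.55 and -0.23, with a smallest adjusted p of 0.275 (edgeR). At an unadjusted p under 0.05 there were 3, and DESeq2 and limma-voom called 0. The genes tested were kl-2 and kl-5, which encode dynein heavy chains of the sperm axoneme, the phosphatase genes Pp1-Y1 and Pp1-Y2, ARY and CCY. kl-5 was at 3.39 to 15.7 CPM (median 9.41) in ZH23 libraries and at 8.34 to 16.1 CPM (median 11.4) in ZW139 libraries (-0.28 ± 0.13, adjusted p = 0.283). CCY was at 0 to 4.54 CPM (median 1.62) in ZH23 libraries and at 1.08 to 5.78 CPM (median 2.80) in ZW139 libraries (-0.55 ± 0.25). The ranges overlapped for every one of the 6. The summed level of the 12 genes was 14.9 to 40.4 CPM (median 28.1) in ZH23 libraries and 22.7 to 51.0 CPM (median 41.0) in ZW139 libraries. Lists of testis genes lay on the same side with no call by edgeR or DESeq2 (4, 5 and 7 at an unadjusted p under 0.05 in edgeR): the median was -0.28 for 10 meiotic arrest genes, -0.17 for 13 postmeiotic cup and comet genes and -0.18 for 26 sperm proteins, of which 24 were not above 0. Over all 10956 genes tested, 5545 were above 0 and 1772 had an unadjusted p under 0.05 (edgeR). Whether a different amount of testis RNA plays a part in the Y-linked values was not tested. Of 6 testis markers 5 were tested, with log2 fold changes of -0.20 for Mst87F (adjusted p = 0.613), -0.13 for aly (0.73), -0.12 for betaTub85D (0.679), -0.05 for dj (0.828) and 0.38 for can (0.48). A list of 39 repeated features, most of them Suppressor of Stellate copies, had 31 members annotated on the Y, 1 on the X and 7 on unplaced scaffolds. Of 13 Stellate genes, whose silencing depends on the Y in this species, 12 were on the X and 1 on an unplaced scaffold. No member of either list had enough counts to test.

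The mitochondrially encoded genes, 24 of 37 tested, gave no call, and their log2 fold changes ran between -0.82 and 0.55 with a smallest adjusted p of 0.349 (edgeR; 0 at an unadjusted p under 0.05, and 0 called by DESeq2 or limma-voom). The nuclear genes of oxidative phosphorylation (96 tested) and of mitochondrial ribosomes (73 tested) gave no call, with medians of -0.03 and 0.12. For 91 cytosolic ribosomal protein genes there was no call, and 81 of them (89%) were above 0 with a median of 0.21. For 27 muscle genes there was no call, and 2 (7.41%) were above 0 with a median of -0.21. Over all genes tested, 50.6% were above 0. Heterochromatin and piRNA factors (20 tested), genes of the fourth chromosome (79 tested) and the dosage compensation complex (8 tested) had no call and medians of -0.05, -0.03 and -0.12. At an unadjusted p under 0.05 there were 7 oxidative phosphorylation, 4 mitochondrial ribosomal, 29 cytosolic ribosomal, 4 muscle, 1 heterochromatin, 8 chromosome 4 and 0 dosage compensation genes. Over all genes tested the count was 1772 of 10956 (edgeR). When the ZH23 pair was left out, edgeR called 1 muscle and 1 heterochromatin gene lower and 1 chromosome 4 gene higher. No gene was called among circadian clock (13 tested), heat shock (20), metallothionein (6), proteasome (46) and yolk and chorion genes (5), whose medians ran between -0.04 and 0.20, with 3, 1, 0, 2 and 0 genes at an unadjusted p under 0.05. With DESeq2 in place of edgeR, each of these 5 lists and the dosage compensation list again had 0 calls, while the oxidative phosphorylation, muscle, heterochromatin, chromosome 4 and cytosolic ribosomal lists had 1 each. By chromosome arm, 9 of 1664 X-linked genes were called (0.541%), all higher in ZH23, against 23 on 2L (1.09%), 30 on 2R (1.34%), 32 on 3L (1.55%) and 49 on 3R (1.83%). Besides the 3L lysozyme stretch, 6 neighbouring pairs of called genes lay within 50 kb of each other, among them Adgf-C and Argp, and Acsx2 and Acsx3, both on 3R and all 4 higher in ZH23. Of another pair, on 2R, asRNA:CR45326 was lower and CG5532 higher in ZH23. Whether called genes lay close together more often than other tested genes was not tested.

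The called genes were also placed among all 6 Y haplotypes by mean level. Of the 113 genes higher in ZH23, mean levels were highest in ZH23 for 63 and in the Beijing B11 for 49, and lowest in the Dutch N03 for 64 and in ZW139 for 41. Of the 30 genes lower in ZH23, ZW139 was highest for 22 and N03 for 7, and ZH23 was lowest for 20 and B11 for 10. These orders are read from the genes chosen for a ZH23 to ZW139 difference and are a description. CG31326 was above 10 CPM in 10 of 12 ZH23 libraries and 3 of 12 ZW139 libraries, and in 3 of 12 for B04, 10 of 12 for B11, 0 of 12 for N03 and 2 of 12 for N07. Srg2 was above 10 CPM in 10 ZH23 and 0 ZW139 libraries, and in 2, 9, 0 and 3 libraries of B04, B11, N03 and N07. Against the mean of B04, B11, N03 and N07, 113 of 11660 genes were called for ZH23 (0.969%, 98 higher and 15 lower) and 128 for ZW139 (1.1%, 99 higher and 29 lower), in tests that share the same 48 libraries. Of the 143 genes, 44 were called in the first test alone, 15 in the second alone, none in both and 84 in neither. The 44 included Srg2, Cyp6g1, Cyp6a2, chp, Mtkl and ACC, and the 15 included Dhc36C and Sfp78E. Without the ZH23 pair of libraries, 296 genes were called for ZH23, and without libraries over 20% of whose alignments went to several places, 47 were called for ZW139.

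**Figure D4:**
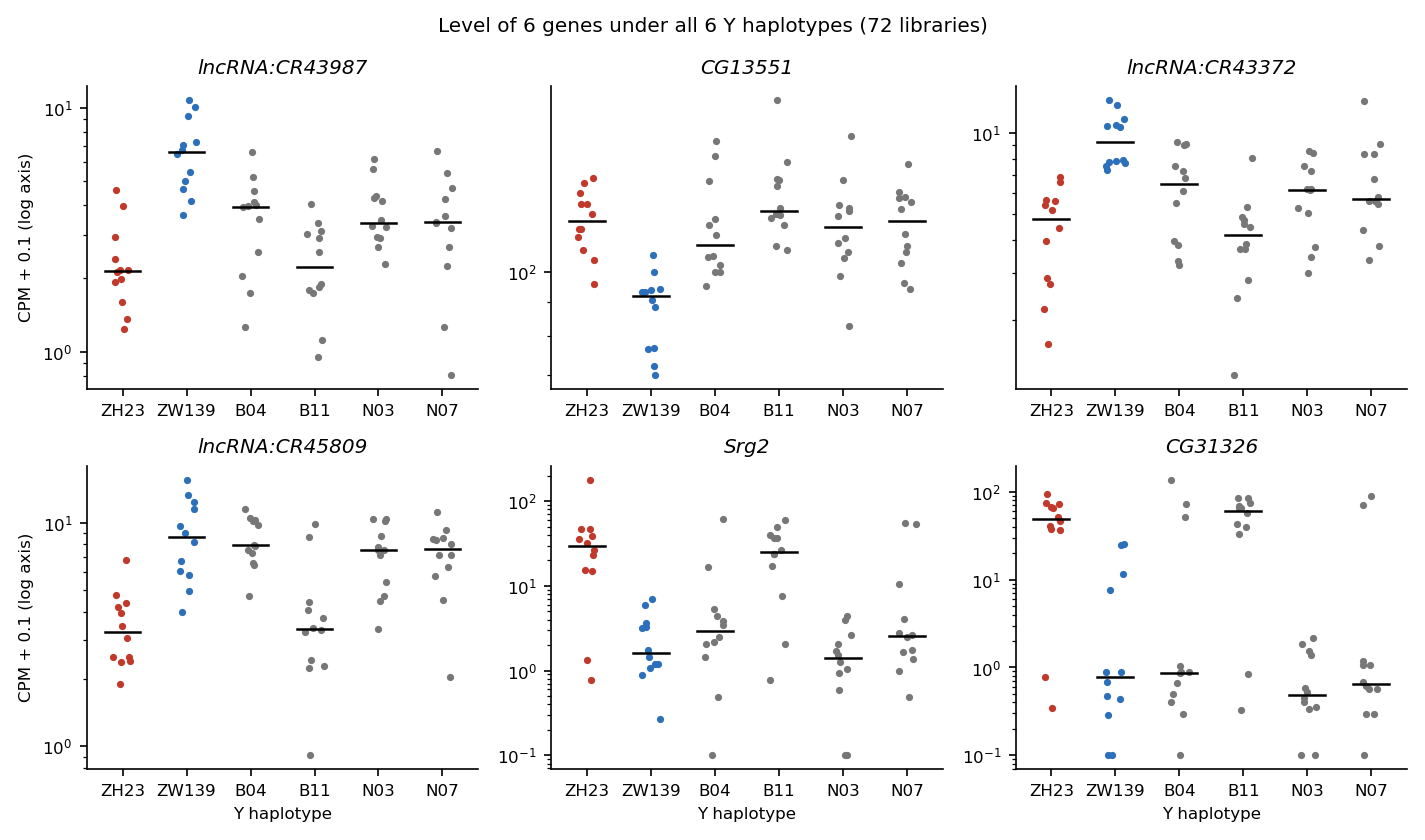
CPM of 6 genes in all 72 libraries, 12 per Y haplotype, on log axes after adding 0.1, with the median as a bar. ZH23 is red, ZW139 blue and the 4 other haplotypes grey. For lncRNA:CR43987, 6 of 12 ZW139 libraries lie above all 60 others, while for Srg2 and CG31326 most ZH23 and B11 libraries are high, with a few high libraries of B04 and N07.

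Beside the 143 calls for ZH23 against ZW139, the same model fitted to the other pairs of Y haplotypes from 1 place called 30 genes for B11 against B04 (24 higher in B11, 6 lower, of 10955 tested) and 1 for N07 against N03 (lower in N07, of 10942 tested). At an unadjusted p under 0.05 the count was 1772 for ZH23 against ZW139, 1194 for B11 against B04 and 136 for N07 against N03. The Zimbabwean pair included no library with over 20% of alignments to several places and each of the other pairs 3, and whether this plays a part was not tested. The counts were not compared by a test.

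The called genes were next followed by mitochondrial haplogroup. They were called in these same 24 libraries, so a shared direction is in part built in and the counts are a description. Of the 143 genes, the ZH23 to ZW139 difference of mean log2 CPM had the sign of the fit for 142 in B38, 142 in B39, 143 in I02, 138 in N01, 143 in N02 and 105 in N23. In the direction of the call, the median log2 difference was 0.62 to 0.93 in the first 5 haplogroups and 0.22 in N23. Over all 10956 genes the sign of the fit was found for 61.6% in B38, 71.8% in B39, 73.9% in I02, 67.8% in N01, 79% in N02 and 63.4% in N23. In N23, 77 of the 113 higher genes and 28 of the 30 lower genes had the sign of the fit. Set against the mean of the N23 ZW139 libraries, replicate 1 of N23 ZH23 had it for 127 of the 143 genes and replicate 2, one of the pair that stood apart, for 63. In N01 it was 142 for replicate 1 and 102 for replicate 2, the other of the pair. The RNA lncRNA:CR43372 in N23 was at 5.64 and 4.41 CPM in ZH23 libraries and at 7.40 and 10.4 CPM in ZW139 libraries. Its groups did not overlap over all 24 libraries, so they could not overlap within any haplogroup. Without N23, 254 genes were called, 199 of them higher in ZH23, and without B38, B39, I02, N01 or N02 the counts were 3, 6, 16, 30 and 4. A test of whether the ZH23 to ZW139 difference depended on haplogroup called no gene of 10956 (edgeR quasi-likelihood, 145 at an unadjusted p under 0.05). In simulated counts this test recovered 5% of 1.5-fold and 55% of 2-fold changes set in opposite directions between haplogroups. The lack of calls therefore does not show that the difference was the same in all haplogroups. In the real counts, limma-voom called 0 and a DESeq2 likelihood ratio test 5. The smallest adjusted p was that of CG14963, 0.242. This gene was at 15.8 to 34.1 CPM in ZH23 libraries of B38, B39, I02, N01 and N02, against 40.0 to 83.8 CPM in their ZW139 libraries, and in N23 it was at 30.3 and 64.2 CPM in ZH23 libraries against 18.3 and 18.9 CPM in ZW139 libraries.

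**Figure D5:**
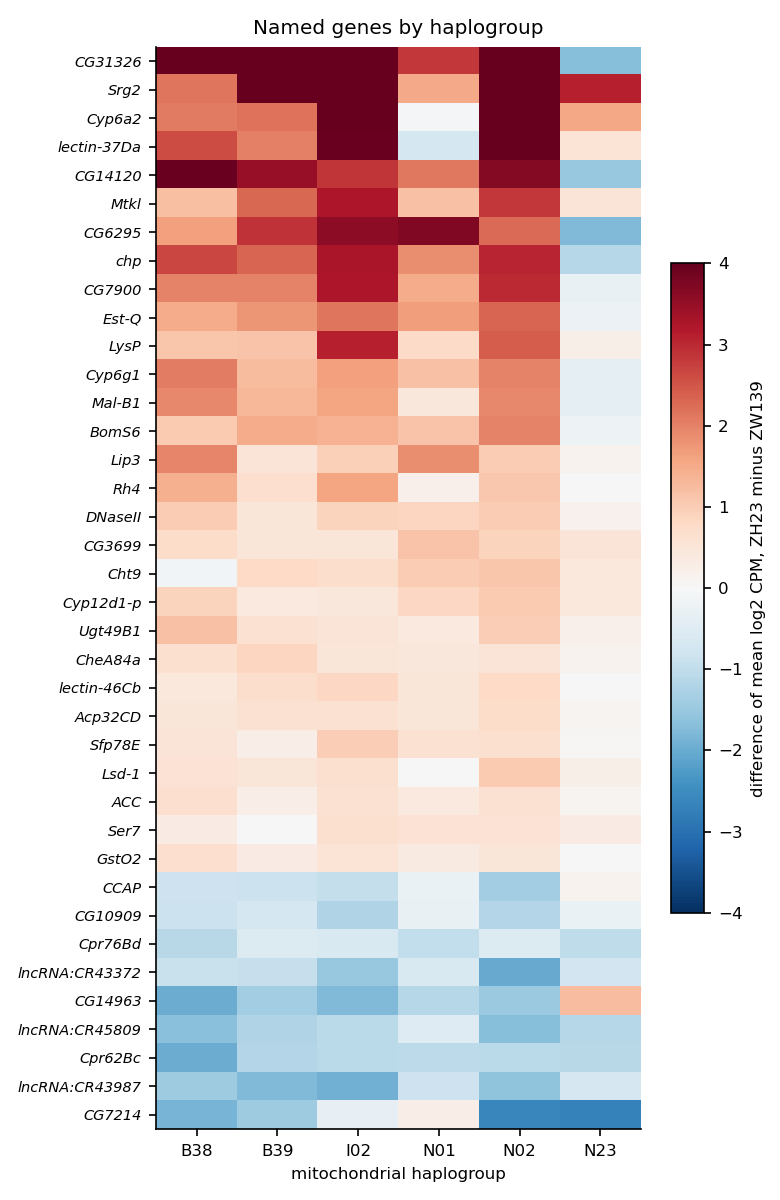
Difference of mean log2 CPM, ZH23 minus ZW139, for 38 named genes called in the comparison (down the page by log2 fold change) in each of the 6 mitochondrial haplogroups, with 2 libraries of each Y per haplogroup. Red is higher in ZH23 and blue lower, and colours stop at 4 and -4. The N23 column is paler or blue for many genes that are red in the other 5 haplogroups, such as CG31326, whose difference of -1.72 in N23 comes with 52.9 CPM in ZH23 replicate 1 and 0.70 CPM in ZH23 replicate 2, against 25.1 and 24.6 CPM in the ZW139 libraries.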

How the data were processed

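RNA of pooled whole males was extracted with Trizol and made into QuantSeq 3' FWD libraries, per the labels' protocols. Gene counts were deposited by the authors as a table of 17324 features by 72 libraries. STAR 2.6 and HTSeq 0.11.0, after Trimmomatic 0.36 and FastQC 0.11.5, are listed in the submitters' processing notes, beside DESeq2. Build, annotation and strand setting: not given in the sources used here. Reads near 3' ends are not compared between genes. Positions and overlaps come from Ensembl 115 (BDGP 6.54), matched by gene ID.

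Counts of the 24 libraries were scaled by TMM, filtered with filterByExpr over the 2 Y haplotypes (10956 genes, 99.72% of counts) and tested with edgeR 4.0.16 (R 4.3.3) with haplogroup, batch and Y as terms (16 residual degrees of freedom). Calls are Benjamini-Hochberg adjusted p under 0.05. Each Y was also set against the mean of the other 4 over 72 libraries. The functions were tested on simulated data. CPM are TMM-scaled, except for markers, Y-linked and mitochondrial genes and list sums, which use total counts. SE belongs to the log2 fold change, and "fits without 1 library" leave out each of the 24 in turn.

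Named genes were, among called genes at 2 or more log2 CPM on average, the 8 highest and 8 lowest fold changes and the 8 smallest p, then up to 3 called members per list at any level, and the 5 smallest interaction p, called or not. Other genes in the text, such as CG9759, lncRNA:CR44689 and members of neighbouring pairs, were named after their values were seen. A gene that met the rule is not reported here. The comparison, the 34 gene lists and these rules were chosen with earlier results of these data known. Replicates were separate crosses, and their counts differed by 13.09 to 80.44 times the sampling noise (chi-square per degree of freedom). Labels do not tie replicate 1 of one Y to replicate 1 of the other, and correlations of their deviations ran from -0.16 to 0.378 over the 6 haplogroups, so the numbers were not taken to pair libraries.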

Additional observations from a re-analysis of the deposited data

Results flagged for a closer look

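For 6 of the named genes every library of some haplogroups lay on one side and every library of N23 or another haplogroup on the other. All of them but CCAP had been named for the smallest interaction p, which picks such patterns, so this is a description. With 2 libraries of each Y per haplogroup, full separation can also arise often without any difference. CG14963 was lower in ZH23 in B38, B39, I02, N01 and N02 and higher in N23, where the log2 difference was 1.23. CCAP was lower in ZH23 in B38, B39, I02 and N02 and higher in N23, by 0.15. CG6295 was higher in ZH23 in the 5 other haplogroups and lower in N23, with a log2 difference of -1.78. In N23, ZH23 replicate 1 was at 176.2 CPM, close to the ZW139 libraries at 186.3 and 177.2 CPM. The difference there came mainly from ZH23 replicate 2 at 15.5 CPM, one of the pair that stood apart. Jon99Ciii, a Jonah serine protease, was also higher in ZH23 in the 5 other haplogroups and lower in N23, by -1.75. In N23 it was at 261 and 92.3 CPM in ZH23 replicates 1 and 2, against 550 and 499 CPM in ZW139 libraries. CatB, a cathepsin gene, was higher in ZH23 in B38, B39 and N02 and lower in N23, with -1.04. The RNA lncRNA:CR45945 was higher in ZH23 in I02, by 1.19, and in N01, and lower in B38 and N23. The difference between those particular haplogroups was not tested. The test over all 6 haplogroups gave an adjusted p of 0.242 for CG14963 and called no gene (edgeR).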

How the results depend on the processing

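Beside 143 calls (113 higher in ZH23), DESeq2's Wald test called 331 (64.7% higher, against 79% in the edgeR test). Counts by list from DESeq2 belong beside these 331 calls. All 72 libraries in an additive model gave 212 calls (54.7% higher) and with interaction 152 (65.8%). Other size factors, filters, limma-voom, batch 1 alone and no batch term gave 106 to 165 calls. Leaving out haplogroup B38, B39, I02, N01, N02 or N23 gave 3, 6, 16, 30, 4 and 254. Leaving out 1 library gave 12 to 243. Without the ZH23 libraries N01 replicate 2 and N23 replicate 2, an alternative chosen after seeing the data, 340 genes were called (71.2% higher), and 296 rather than 113 for ZH23 against the other 4 haplotypes. ZW139 against the other 4 fell to 47 calls, of 128, without libraries over 20% of whose alignments went to several places. For the interaction, the DESeq2 likelihood ratio test called 5, against 0. The cause was not tested in any of these.

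With a replicate block of 12 pairs by haplogroup and cross letter, 7 genes were called, all among the 143, and they included CG3699, CG9759, Srg2, lncRNA:CR43372, lncRNA:CR43987 and lncRNA:CR45809. With the cross letter alone as a block, 201 were called (72.1% higher). The pairs' correlations were 0.224, 0.187, -0.16, 0.0556, 0.378 and -0.154 in B38, B39, I02, N01, N02 and N23.

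Of the results on named genes, 640 fits lost the call, 9 gained it and 7 reversed direction. All 7 are of lncRNA:CR45945, not called in any fit (log2 fold change -0.12): 0.027 in batch 1 alone, 0.083 without B38, 0.31 without N23, and between -0.41 and 0.097 without single libraries (0.014 without N02 ZW139 replicate 1, 0.021 and 0.097 without N23 ZH23 replicates 1 and 2, 0.085 without N23 ZW139 replicate 2). Low counts kept 6 of the 12 single-copy Y-linked genes out of the test.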
